A study of Homo sapiens with 8 samples.

Results

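Of the 58828 genes counted by RNA-seq in 22RV1 and DU145 cells, which are established human prostate cancer cell lines, 42 belong to the ATF4 and unfolded protein response pathways and are described here. The genes were chosen by symbol from a list. All 42 were present in the count table of each line and passed the low-count filter, with raw counts between 131 and 162956 per library. They lie on 18 chromosomes. The cells carried a doxycycline-inducible lentiviral vector, either empty (vector cells) or with PAGE4, a cancer/testis antigen of the prostate (PAGE4 cells). Both were grown with doxycycline and were pools selected for the virus. Each was given PBS or 200 mM H2O2 for 12 h before collection. That dose is the one in the labels and methods; legends of other experiments of the study name a lower one, and the dose could not be checked from the counts. That makes 8 libraries, 1 per condition, with total counts from 25482984 to 43310401. The labels name no replicate, so the 4 pairs of H2O2 and PBS libraries, and the 4 pairs of PAGE4 and vector libraries, served as the repeats of each contrast. The p-values rest on the spread between such pairs and not on repeat cultures of a condition. With so few pairs, the test takes much of that spread from all genes together. A very small p-value is therefore not the observed spread of 1 gene.

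When unfolded proteins gather in the endoplasmic reticulum (ER), 3 sensors in its membrane respond. EIF2AK3 (PERK) phosphorylates the translation factor eIF2, which slows protein synthesis while the ATF4 mRNA is translated more. ERN1 (IRE1) splices the XBP1 mRNA, and ATF6 is cleaved to free a transcription factor. The ATF4 branch is also entered from amino acid shortage, haem shortage and viral RNA, and is then called the integrated stress response. It raises amino acid synthesis and import genes and stress effectors such as DDIT3 (CHOP), whereas ATF6 and XBP1 raise ER chaperones. Gene counts hold neither phosphorylation, translation nor splicing, so only the mRNA totals of these genes were compared.

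Known motifs of both arms were searched in the promoters. Of the 42 genes, 38 had a promoter in the RefSeq table of GRCh38.p14, which holds 250 bases before to 50 bases after each start. NUPR1, PSPH, ALDH1L2 and SHMT2 had no entry. The ER stress response element, which is CCAAT and CCACG held 9 bases apart, was found on either strand in PDIA6, HSPA5, HSP90B1, CALR, XBP1 and CRELD2, which is 6 of 38 genes or 15.8%, and in 0.0916% of the 27305 genes of the table. The ER stress response element II, which is ATTGG and CCACG held 1 base apart, was found in HYOU1, HERPUD1 and SDF2L1 and in 0.0696% of all genes. The C/EBP-ATF composite element TGATGNAA, to which ATF4 dimers are known to bind, was found in ATF3, ASNS, SLC3A2, SLC7A1, CHAC1 and HERPUD1, or 15.8% of the 38 genes against 4.46% of all genes. It was found in 0 of the 11 ER chaperones and folding factors, which at 4.46% of all genes does not set them apart. The unfolded protein response element TGACGTGG was found in HYOU1 alone among the 38 and in 0.927% of all genes, and it overlaps an ER stress response element II there. These are matches of letters, and binding was not measured. The genes were listed for these pathways and the motifs are known from them, so the higher shares describe the list and test nothing. Only some of these stretches are shown, and they were picked with the H2O2 changes of their genes known. Whether a motif goes with a direction of change therefore cannot be read from them and was not tested. HYOU1, HSP90B1 and PDIA6 also hold matches before the start and are not shown. The stretches are read 5′ to 3′ on the strand of the gene, with the matched letters in capitals.
ATF3 (chr1:212565201-212565238, plus strand): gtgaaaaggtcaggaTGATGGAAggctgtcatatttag
ASNS (chr7:97872464-97872481, minus strand): aggcaTGATGAAActtcc
CHAC1 (chr15:40953257-40953274, plus strand): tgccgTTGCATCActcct
HERPUD1 (chr16:56931951-56932050, plus strand): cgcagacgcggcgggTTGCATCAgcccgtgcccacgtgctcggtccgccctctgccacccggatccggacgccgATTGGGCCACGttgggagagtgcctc
HSPA5 (chr9:125241386-125241414, minus strand): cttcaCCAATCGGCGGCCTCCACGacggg
XBP1 (chr22:28800598-28800626, minus strand): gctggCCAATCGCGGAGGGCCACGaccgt
CALR (chr19:12938369-12938417, plus strand): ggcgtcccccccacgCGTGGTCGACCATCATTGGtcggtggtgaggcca
CRELD2 (chr22:49918539-49918587, plus strand): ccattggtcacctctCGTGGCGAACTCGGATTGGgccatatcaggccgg
SDF2L1 (chr22:21642099-21642139, plus strand): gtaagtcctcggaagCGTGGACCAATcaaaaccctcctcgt

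The stretches of ATF3, HERPUD1, HSPA5, XBP1, CALR and SDF2L1 lie outside the genes of GENCODE release 44, and that of CRELD2 lies in an intron of a longer CRELD2 transcript. Those of ASNS and CHAC1 lie before the RefSeq start but touch a 5′ exon of another annotated transcript of the same gene. HERPUD1 holds a match of each arm, 1 to the composite element and 1 to the ER stress response element II.

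Levels of marker genes were set beside the labels. HOXB13, a homeobox factor of prostate epithelium, had 2095.4 to 6705.5 normalized counts in 22RV1 libraries and 0.0 to 4.5 in DU145 libraries, and AXL, a receptor kinase of DU145 cells, had 3.9 to 9.8 and 7860.3 to 13247.6. Of the other DU145 markers, VIM, CAV1 and S100A2 were also higher in every DU145 library than in any 22RV1 library, but CD44 (2759.0 to 6562.2 in 22RV1 and 2516.4 to 5308.9 in DU145 libraries) and LGALS1 (2166.5 to 4407.7 and 1465.8 to 3454.3) did not separate the lines. PAGE4 had at most 1.2 normalized counts in vector cells and 1133.7 to 1780.8 in PAGE4 cells. The leukocyte markers were near 0, with at most 1.1 for CD3E, 7.8 for PTPRC and 5.6 for LYZ, and of the stroma markers DCN and COL1A2 had at most 11.7 and 6.2 and LUM 96.9. Other values moved with H2O2 and their part in the results was not tested. The luminal markers KLK3, KLK2, FOLH1, HOXB13, TMPRSS2 and STEAP2 were each lower with H2O2 in both 22RV1 pairs, with STEAP2, for example, at 14191.1 and 11745.2 normalized counts with PBS and 2810.5 and 4332.3 with H2O2 in vector and PAGE4 cells. COL1A1, a collagen gene on the stroma list, went from 259.8 and 372.7 to 586.2 and 834.4 in the same pairs and from 279.1 and 284.3 to 192.4 and 180.4 in DU145 cells. The mitochondrial share of counts was 10.2% to 16.5% with PBS and 8.97% to 11.2% with H2O2. The 42 genes took 0.735% to 1.32% of all counts.

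The first comparison asked which of these genes H2O2 changed on average over the 4 pairs. A gene could pass and still differ between the lines, which was tested separately. By edgeR's quasi-likelihood test with Benjamini-Hochberg adjustment over 24637 genes, 22 of the 42 rose and 8 fell, against 7.78% and 10.3% of all genes. Without the 22RV1 vector pair 4 fell, and without the 22RV1 PAGE4 pair 5 fell. All 6 stress effectors, 6 of 7 transcription factors, 5 of 9 enzymes of serine, folate and amino acid metabolism, 2 of 3 amino acid transporters and 2 of 3 sensors rose, whereas 7 of 11 ER chaperones and folding factors fell and 1 rose. None of the 3 genes of ER-associated degradation passed. The median log2 fold change was 1.88 over the stress effectors and -0.73 over the chaperones, beside -0.03 over all genes. Taken pair by pair with no test, 16 of the 42 genes were over 1.5-fold higher in 22RV1 cells with the empty vector and 9 lower, against 15.6% and 20.9% of all genes. In PAGE4 cells of that line 12 were higher and 9 lower, against 13.6% and 15.4%. In DU145 cells with the empty vector 24 were higher and 2 lower, against 18.8% and 22.8%, and in DU145 PAGE4 cells 19 were higher and 3 lower, against 18.8% and 23.6%. In the plot of the 4 pairs, 10 genes were over 1.5-fold higher in every pair (ATF3, DDIT3, DDIT4, TRIB3, CHAC1, ASNS, SESN2, PPP1R15A, STC2 and ERN1), against 2.63% of 16668 genes, and PDIA4 and CRELD2 were over 1.5-fold lower in every pair, against 4.06%. Across lines, the 4 H2O2 libraries lay above the 4 PBS libraries for 8 of the 42 genes, against 5.99% of genes, and below them for PDIA4, against 6.4%.

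**Figure D1:**
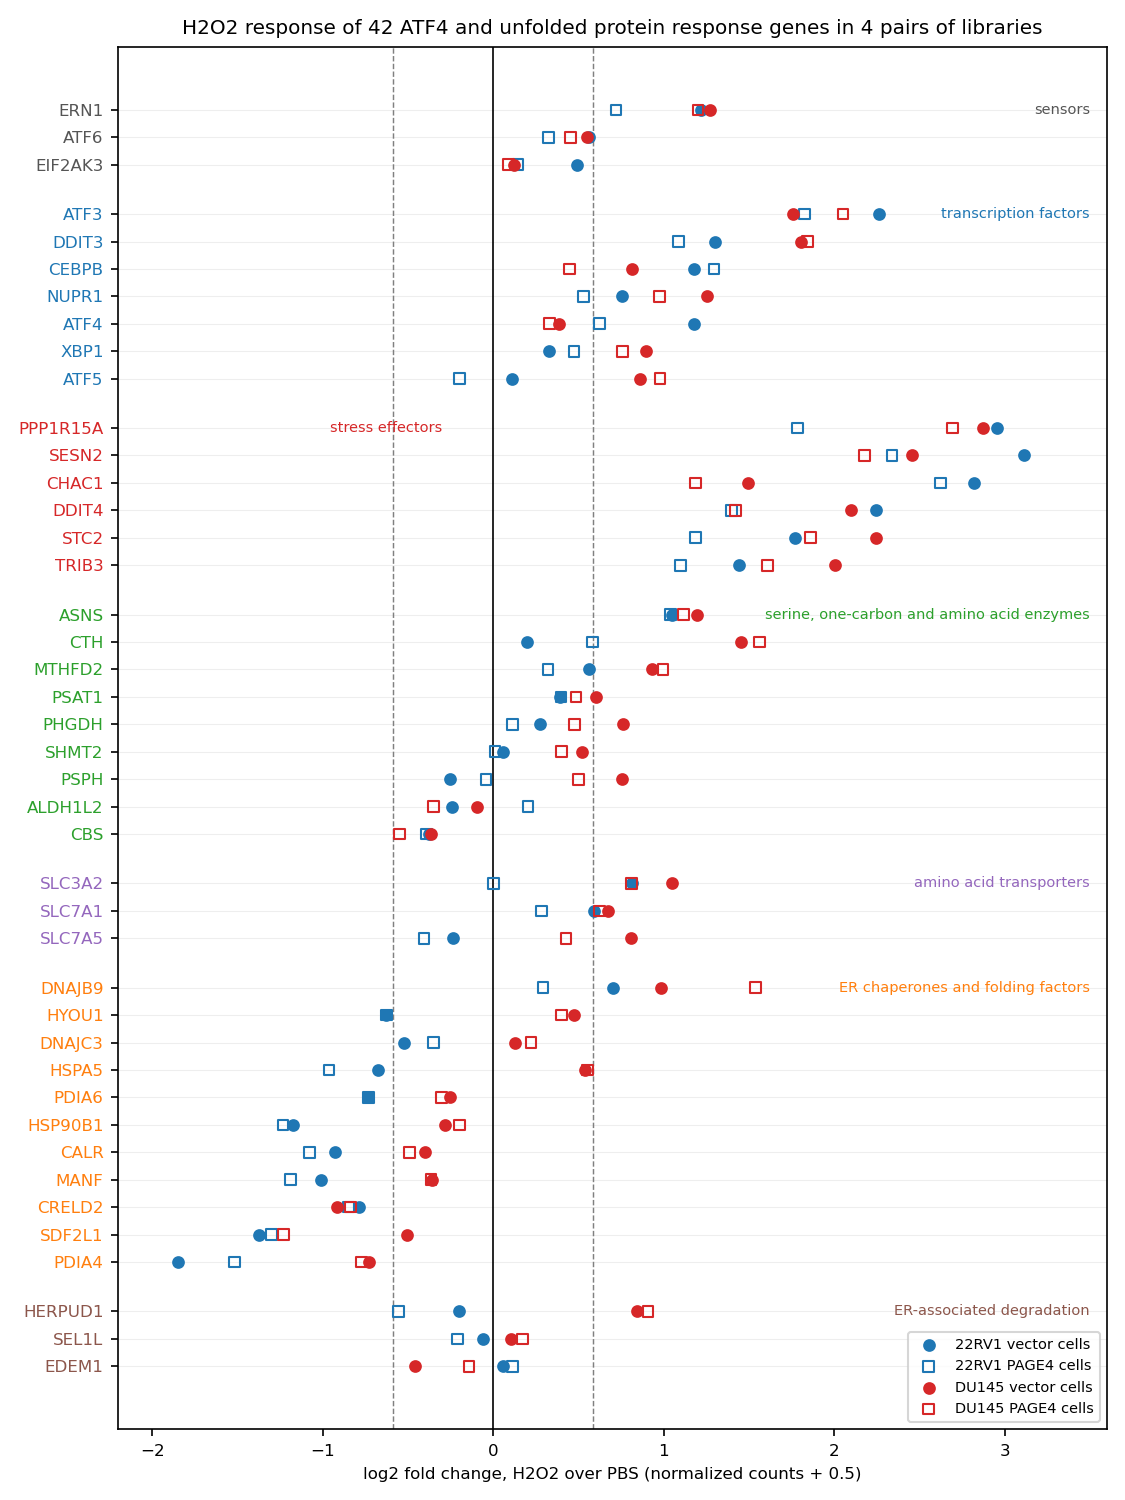
Log2 fold change of the normalized count with H2O2 over PBS (x axis) for each of the 42 genes (y axis, coloured by role), 1 point per pair of libraries; filled symbols are vector cells, open symbols PAGE4 cells, and dashed lines mark 1.5-fold. All 6 stress effectors lie right of the upper dashed line in every pair, and all chaperones but DNAJB9 lie left of 0 in both 22RV1 pairs.

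Among the sensors, ERN1 rose by a log2 fold change of 1.10 ± 0.13 (SE, 4 pairs; adjusted p = 0.0014 by edgeR). Its normalized counts with PBS and then with H2O2 were 687 and 1601 in 22RV1 cells with the empty vector, 705 and 1161 in 22RV1 cells with PAGE4, 692 and 1671 in DU145 cells with the empty vector, and 633 and 1457 in DU145 cells with PAGE4. The H2O2 libraries of ERN1 all lay above its PBS libraries. ATF6 rose less, by 0.46 ± 0.09 (adjusted p = 0.0118 by edgeR), with 1736 and 2557 in 22RV1 cells with the empty vector, 1779 and 2227 in 22RV1 cells with PAGE4, 1975 and 2887 in DU145 cells with the empty vector, and 1836 and 2515 in DU145 cells with PAGE4. EIF2AK3, the sensor that feeds ATF4, had a log2 fold change of 0.21 ± 0.14 and did not pass (adjusted p = 0.354 by edgeR). It was also the lowest of the 42 genes per length in every library, at 1.32 to 4.65 TPM (counts scaled by exon length and library total).

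The ATF4 mRNA itself rose by 0.62 ± 0.14 (adjusted p = 0.0203 by edgeR), from a high level. Its normalized counts with PBS and with H2O2 were 9934 and 22499 in 22RV1 cells with the empty vector, 10392 and 16024 in 22RV1 cells with PAGE4, 15699 and 20531 in DU145 cells with the empty vector, and 16506 and 20755 in DU145 cells with PAGE4. The rise was over 1.5-fold in both 22RV1 pairs and under it in both DU145 pairs. ATF3, a stress-induced relative that ATF4 is known to induce, rose by 1.97 ± 0.13 (adjusted p = 0.000188 by edgeR), with 544 and 2616 in 22RV1 cells with the empty vector, 538 and 1909.6 in 22RV1 cells with PAGE4, 447 and 1516 in DU145 cells with the empty vector, and 431.5 and 1789.6 in DU145 cells with PAGE4. DDIT3, which promotes death in prolonged ER stress, rose 2.82-fold (adjusted p = 0.000718 by edgeR), with 993 and 2449 in 22RV1 cells with the empty vector, 877 and 1862 in 22RV1 cells with PAGE4, 514.5 and 1797 in DU145 cells with the empty vector, and 512 and 1841 in DU145 cells with PAGE4. For ATF3 and DDIT3 every H2O2 library was above every PBS library of either line. CEBPB, a partner of ATF4 at the composite element, rose by 0.92, NUPR1, a small stress-induced chromatin protein, by 0.86 and XBP1 by 0.61 on the log2 scale. ATF5 missed the threshold (0.42 ± 0.19, adjusted p = 0.172 by edgeR).

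The stress effectors changed most. PPP1R15A (GADD34), the phosphatase subunit that takes the phosphate off eIF2, rose by 2.57 ± 0.19 (adjusted p = 0.000327 by edgeR), with 1245 and 9665 in 22RV1 cells with the empty vector, 1285 and 4430.4 in 22RV1 cells with PAGE4, 1491 and 10901 in DU145 cells with the empty vector, and 1789 and 11571 in DU145 cells with PAGE4. SESN2, which holds back mTORC1, rose by 2.51 ± 0.16 (adjusted p = 0.000188 by edgeR), with 890.1 and 7716 in 22RV1 cells with the empty vector, 778 and 3940.2 in 22RV1 cells with PAGE4, 1466 and 8039 in DU145 cells with the empty vector, and 1812 and 8204 in DU145 cells with PAGE4. CHAC1, which degrades glutathione, rose by 1.99 ± 0.27 (adjusted p = 0.00295 by edgeR), with 161.5 and 1143 in 22RV1 cells with the empty vector, 102 and 629.6 in 22RV1 cells with PAGE4, 1447 and 4081 in DU145 cells with the empty vector, and 1863 and 4239.9 in DU145 cells with PAGE4. Neither the PPP1R15A nor the SESN2 libraries overlapped between treatments, whereas CHAC1 with H2O2 in 22RV1 cells stayed below its PBS level in DU145 cells. DDIT4, another inhibitor of mTORC1, rose by 1.78, STC2, a secreted glycoprotein, by 1.77 and TRIB3, a pseudokinase that restrains ATF4 signalling, by 1.53 on the log2 scale. The summed count of the 6 genes was 4.75 times as high with H2O2 in 22RV1 vector cells, 2.82 times in 22RV1 PAGE4 cells, 4.6 times in DU145 vector cells and 3.48 times in DU145 PAGE4 cells.

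**Figure D2:**
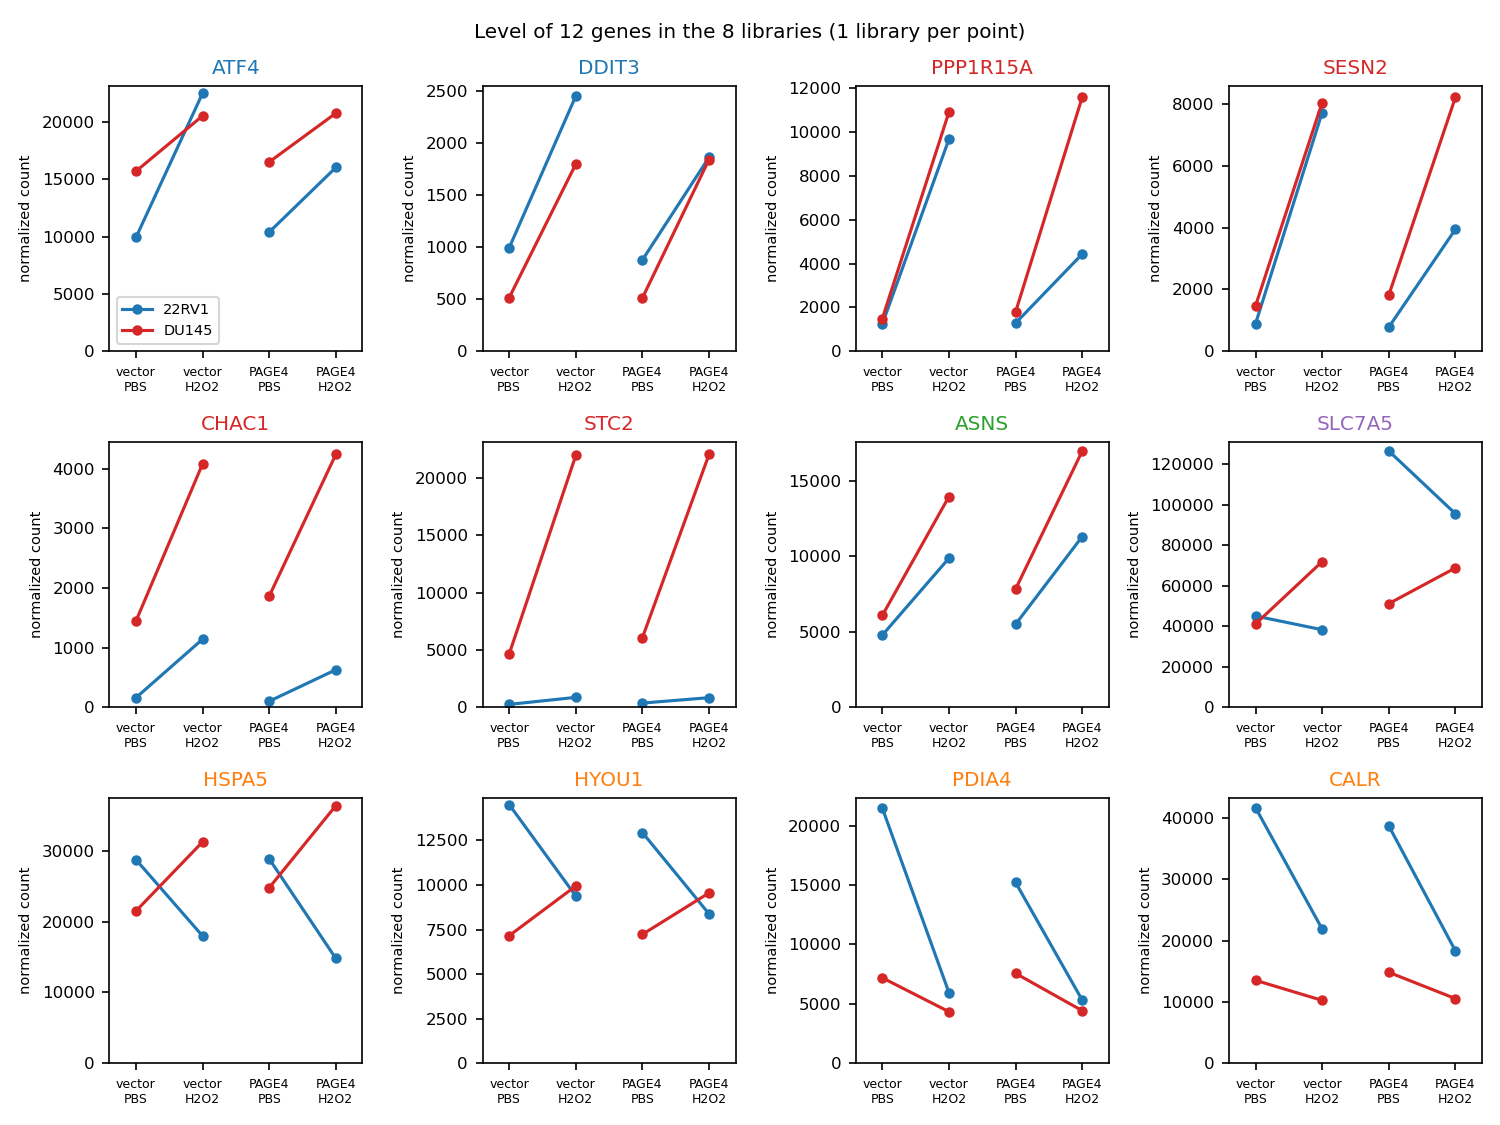
Normalized counts (y axis, from 0) of 12 genes in the 8 libraries (x axis, construct and treatment), 1 library per point, with 22RV1 in blue and DU145 in red and lines joining PBS to H2O2 of the same cells. HSPA5 and HYOU1 go down in both 22RV1 pairs and up in both DU145 pairs, and SLC7A5 stands at 95570.6 and 126542.5 in 22RV1 PAGE4 cells.

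Among the enzymes, ASNS, which makes asparagine, rose by 1.09 ± 0.08 (adjusted p = 0.000373 by edgeR), with 4776 and 9865 in 22RV1 cells with the empty vector, 5493 and 11292 in 22RV1 cells with PAGE4, 6079 and 13941 in DU145 cells with the empty vector, and 7820.3 and 16941 in DU145 cells with PAGE4. CTH, which makes cysteine, rose by 0.96, MTHFD2, a mitochondrial folate enzyme, by 0.69, and PSAT1 and PHGDH of serine synthesis by 0.46 and 0.40 on the log2 scale. CBS, which acts just before CTH, fell by 0.43 (adjusted p = 0.0305 by edgeR). PSPH, SHMT2 and ALDH1L2 did not pass, with log2 fold changes from -0.13 to 0.24. Of the transporters, SLC3A2, the heavy chain shared by several amino acid carriers, rose by 0.66 and SLC7A1, the carrier of arginine and lysine, by 0.54. SLC7A5, the light chain that pairs with SLC3A2, had 0.14 ± 0.18 (adjusted p = 0.643 by edgeR).

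PDIA4, a disulfide isomerase, fell by 1.23 ± 0.18 on the log2 scale (adjusted p = 0.00364 by edgeR), with 21472 and 5952 in 22RV1 cells with the empty vector, 15223 and 5323 in 22RV1 cells with PAGE4, 7194 and 4341 in DU145 cells with the empty vector, and 7571 and 4430.3 in DU145 cells with PAGE4. SDF2L1, which keeps folding clients soluble, fell by 1.12, CRELD2, a secreted ER stress protein, by 0.85, MANF, a secreted ER factor, by 0.74, CALR, a lectin chaperone, and HSP90B1 (GRP94) each by 0.73, and PDIA6 by 0.51. DNAJB9, a co-chaperone of HSPA5 and a known XBP1 gene, was the exception and rose by 0.85 ± 0.20 (adjusted p = 0.0191 by edgeR). HSPA5 (BiP), HYOU1 and DNAJC3 did not pass, with log2 fold changes from -0.14 to -0.10. The summed count of the 11 genes was 179829 and 91352 in 22RV1 vector cells, 159997 and 77456 in PAGE4 cells of that line, 79981 and 81263 in DU145 vector cells, and 85180 and 87129 in DU145 PAGE4 cells, with PBS and H2O2 respectively. The sum stood lower with H2O2 in the 22RV1 pairs and nearly level in the DU145 pairs.

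Whether the lines responded alike was tested next, by the difference of the H2O2 effect in DU145 minus that in 22RV1. The 2 pairs of each line, vector and PAGE4, are related cultures and not independent samples of the line. Other differences between cultures of the lines cannot be told apart from the line, and the p-values do not measure them. In 22RV1 cells 20 of the 42 genes rose and 13 fell (11.6% and 13.9% of all genes), and in DU145 cells 29 rose and 9 fell (15.3% and 18.3%), with 5 falling when the DU145 vector pair was left out. 20 genes rose in both lines, against 6.03% of all genes, and 8 fell in both, against 8.03%. HSPA5, HERPUD1, HYOU1 and SLC7A5 fell in 22RV1 and rose in DU145 cells, as 0.637% of all genes did, and no member did the reverse. The difference itself passed the test with a higher value in DU145 cells for 22 genes and a lower one for 4, against 7.04% and 8.22% of all genes, and the 22 became 14 without the DU145 vector pair.

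**Figure D3:**
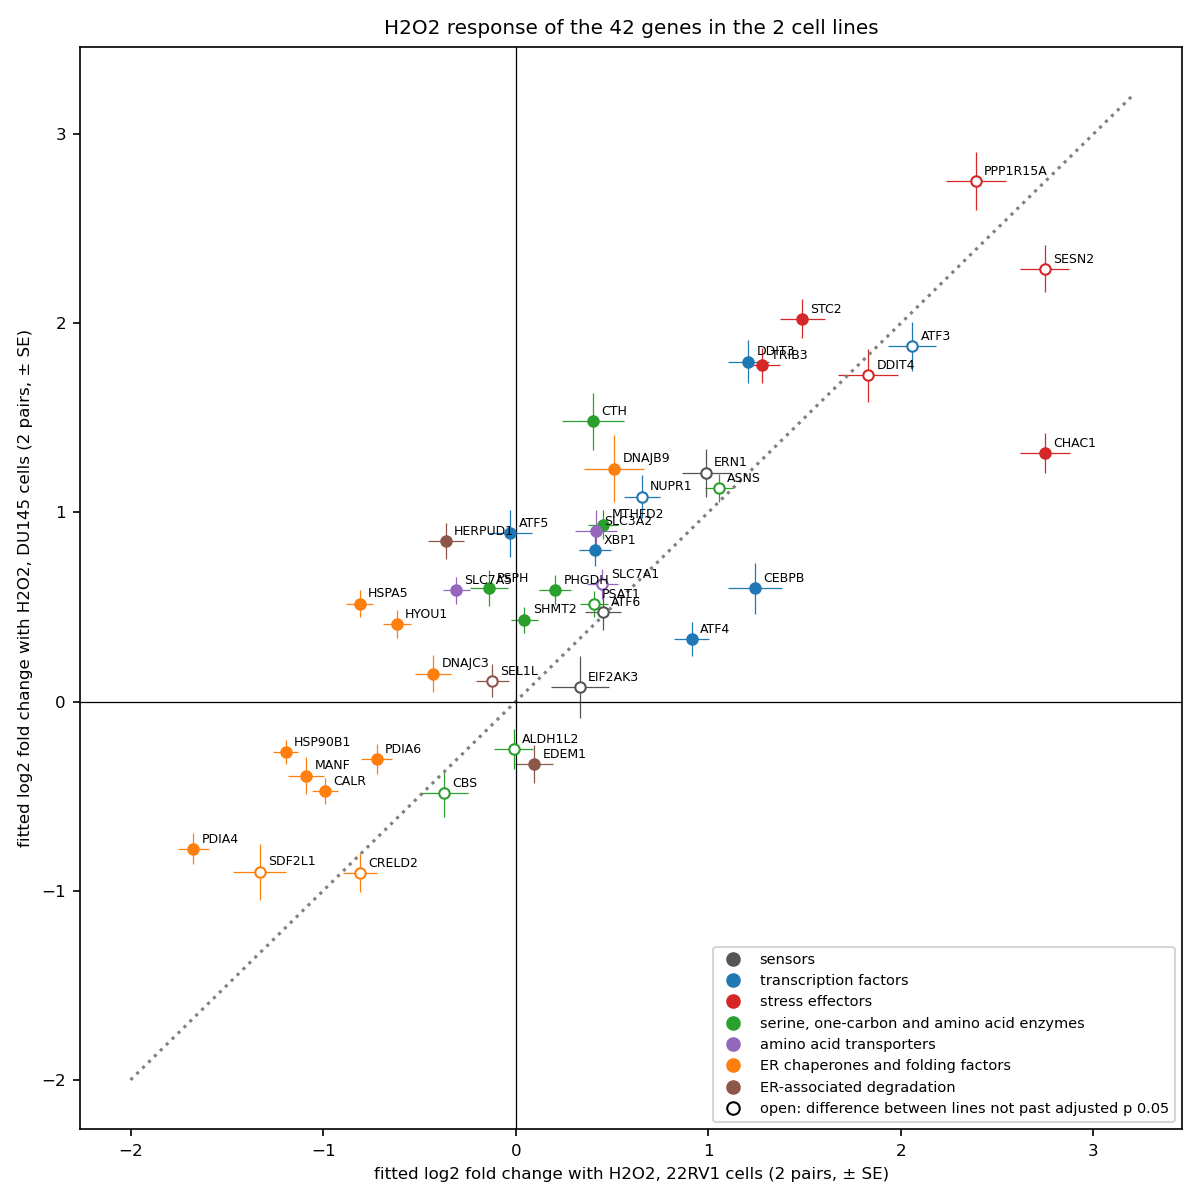
Fitted log2 fold change with H2O2 in 22RV1 cells (x axis) and DU145 cells (y axis), each from 2 pairs with its SE, coloured by role; the dotted line marks equal change and open symbols are genes whose difference did not pass. Most chaperones lie above the dotted line, and CHAC1, CEBPB and ATF4 lie below it.

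HSPA5, the main HSP70 of the ER and a textbook marker of the unfolded protein response, showed the widest gap among the chaperones. Its normalized counts with PBS and with H2O2 were 28728 and 17956.5 in 22RV1 cells with the empty vector, 28833 and 14792 in 22RV1 cells with PAGE4, 21495 and 31240.2 in DU145 cells with the empty vector, and 24772.5 and 36352 in DU145 cells with PAGE4. The level fell in both 22RV1 pairs and rose in both DU145 pairs. The fitted log2 fold change was -0.81 ± 0.07 in 22RV1 and 0.52 ± 0.07 in DU145 cells, a difference of 1.33 ± 0.10 (adjusted p = 9.4e-10 by edgeR). HYOU1, an exchange factor of HSPA5, had -0.62 and 0.41, a difference of 1.03 ± 0.10 (adjusted p = 1.17e-07 by edgeR), with 14512 and 9383.5 in 22RV1 cells with the empty vector, 12943 and 8381 in 22RV1 cells with PAGE4, 7157 and 9945 in DU145 cells with the empty vector, and 7231 and 9556 in DU145 cells with PAGE4. HERPUD1, which helps to assemble the ER-associated degradation machinery, had -0.36 and 0.85, a difference of 1.21 ± 0.13 (adjusted p = 5.75e-07 by edgeR), with 3413 and 2973 in 22RV1 cells with the empty vector, 3287 and 2239 in 22RV1 cells with PAGE4, 2313.5 and 4154 in DU145 cells with the empty vector, and 2420.3 and 4542 in DU145 cells with PAGE4. In all, 9 of 11 chaperones had a higher value in DU145 cells. HSP90B1, PDIA4, CALR, MANF and PDIA6 fell in both lines, further in 22RV1 cells. SDF2L1 and CRELD2 fell in both lines with differences that did not pass, 0.43 and -0.10.

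Of the transporters, SLC7A5 went from -0.31 in 22RV1 to 0.59 in DU145 cells, a difference of 0.90 ± 0.10 (adjusted p = 6.63e-07 by edgeR). Among the enzymes, CTH, PSPH, MTHFD2, SHMT2 and PHGDH rose more in DU145 cells, by 0.38 to 1.08 on the log2 scale. PSPH, SHMT2, PHGDH and CTH were called in DU145 cells and not in 22RV1 cells. ATF5, DDIT3 and XBP1 rose more in DU145 cells, whereas ATF4 (0.91 in 22RV1, 0.33 in DU145) and CEBPB (1.24 and 0.60) rose more in 22RV1 cells. CHAC1 differed most in that direction, with 2.75 ± 0.13 in 22RV1 and 1.31 ± 0.11 in DU145 cells (difference -1.44 ± 0.16, adjusted p = 9.5e-07 by edgeR). The differences of PPP1R15A, SESN2, DDIT4, ATF3, ERN1 and ASNS did not pass.

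Other genes of the pathway, given as a list of 68, were fitted in the same way. With H2O2, 27 rose and 10 fell in the fit common to the 4 pairs, where 7.78% of all genes rose and 10.3% fell. Of 17 other ATF4 targets 11 rose and 0 fell, of 12 aminoacyl-tRNA synthetases 9 rose and 1 fell, of 10 kinases and eIF2 factors 3 rose and 1 fell, and of 29 other ATF6 and XBP1 genes 4 rose and 8 fell. The largest rises were those of GDF15, a stress hormone (3.87 ± 0.59, adjusted p = 0.00426 by edgeR), FGF21, another secreted hormone (0.7 to 5.6 normalized counts with PBS, near the floor, and 9.4 to 32.5 with H2O2) and SLC6A9, a glycine carrier (1.18 ± 0.11). DERL3, a factor of ER-associated degradation, ERO1B, an ER oxidase, and MBTPS2, a protease that cleaves ATF6, fell most, by 1.61, 0.76 and 0.75 on the log2 scale.

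The study asked what PAGE4 does under oxidative stress, so the constructs were compared in 2 ways. First, whether H2O2 changed these genes differently in PAGE4 and vector cells was tested as an interaction. Of the 42 differences, PAGE4 minus vector, 34 were negative, beside 12199 of 24637 over all genes. These signs come from the same libraries and are not repeats of a construct effect. The response was smaller in PAGE4 cells for 4 of the 42 genes and larger for 0, against 0.101% and 0.0649% of all genes. The 4 were DDIT4 (-0.75 ± 0.14, adjusted p = 0.000331), PPP1R15A (-0.68 ± 0.12, adjusted p = 9.65e-05), SESN2 (-0.53 ± 0.13, adjusted p = 0.0379) and SLC3A2 (-0.53 ± 0.10, adjusted p = 0.000173), by edgeR. None of the 4 was called by DESeq2's Wald test (adjusted p = 1.0 for each), which called 2 genes in the whole table against 41 by edgeR, and SESN2 was also lost without the low-count filter (adjusted p = 0.0879). The fit has 1 residual degree of freedom, so its SE and p-values rest almost wholly on a spread pooled over genes. They do not measure how far the lines differed for a gene, such as PPP1R15A with -1.17 in 22RV1 and -0.18 in DU145 cells.

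Within each line the values were as follows, with no test, since each condition has 1 library. With H2O2, PPP1R15A rose by 2.96 on the log2 scale in 22RV1 vector cells and by 1.79 in 22RV1 PAGE4 cells, and by 2.87 and 2.69 in DU145 cells. SESN2 rose by 3.12 and 2.34 in 22RV1 cells and by 2.45 and 2.18 in DU145 cells. The difference of DDIT4 was -0.84 in 22RV1 and -0.67 in DU145 cells, whereas that of PPP1R15A was -1.17 and -0.18, that of SESN2 -0.78 and -0.28, and that of SLC3A2 -0.81 and -0.23. SLC3A2 was not lower with H2O2 in 22RV1 PAGE4 cells. Its normalized counts in 22RV1 vector and PAGE4 cells were 10876.0 and 27303.3 with PBS and 19101.5 and 27342.6 with H2O2. All 6 stress effectors rose less in PAGE4 cells of each line, with a median difference of -0.68 in 22RV1 and -0.35 in DU145 cells. Over all genes the difference was negative for 47.5% and 50.8%, but that share mixes genes that rose and genes that fell. In 22RV1 cells fewer of all genes passed 1.5-fold with PAGE4 (13.6% higher, 15.4% lower) than with the vector (15.6% and 20.9%). In DU145 cells the shares were 18.8% and 23.6% with PAGE4 and 18.8% and 22.8% with the vector. Whether the stress effectors differ from other rising genes in this was not tested. In DU145 cells the PAGE4 libraries were not lower with H2O2: DDIT4 had 7150.5 normalized counts in vector and 8426.3 in PAGE4 cells, and the PBS levels were 1672.4 and 3142.9. Each of the 6 stress effectors stood higher in DU145 PAGE4 than vector cells, with PBS and with H2O2. Their summed count in vector and PAGE4 cells was 15493 and 22291 with PBS and 71314 and 77694 with H2O2. In 22RV1 cells it was 6359 and 6727 with PBS and 30204 and 18986 with H2O2.

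**Figure D4:**
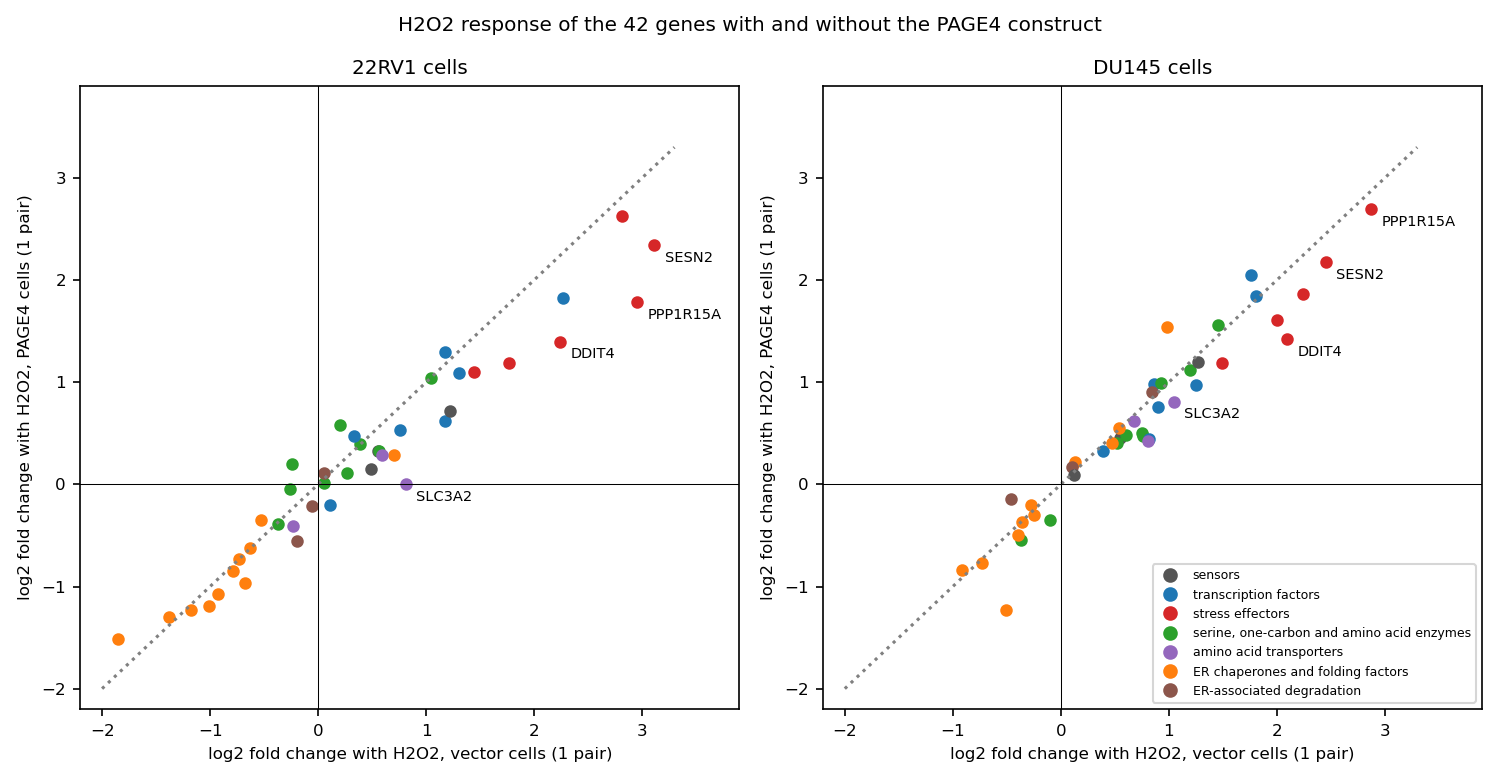
Log2 fold change with H2O2 in vector cells (x axis) and PAGE4 cells (y axis) for the 42 genes in each line, 1 pair of libraries per axis, coloured by role; the dotted line marks equal change. PPP1R15A, SESN2, DDIT4 and SLC3A2 lie below the dotted line in both panels, farther in 22RV1 cells.

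Second, the level in PAGE4 cells was compared with that in vector cells over the 4 pairs. None of the 42 genes passed in edgeR, where 0.126% of all genes were higher and 0.0934% lower, and at an unadjusted p under 0.05 there were 6 higher and 3 lower, against 7.45% of all genes in either direction. This depended on the filter and on the pairs fitted. Without the low-count filter edgeR called 4 higher and 1 lower. Among them were SLC7A5 (adjusted p = 8.75e-54), SLC3A2 (adjusted p = 5.31e-20), ASNS (adjusted p = 0.0145) and ATF5, which was lower (adjusted p = 0.0292). Such small values do not measure the spread between the pairs, in which SLC7A5 ranged from 0.957 to 2.81 times the vector level. With the filter SLC7A5 had 0.76 ± 0.19 (adjusted p = 0.192 by edgeR). By DESeq2's Wald test the adjusted p was 0.877 for SLC7A5 and 0.55 for SLC3A2. Without the DU145 H2O2 pair edgeR called SLC7A5 (adjusted p = 0.00545) and SLC3A2 (adjusted p = 0.0237). DESeq2 called 1, ASNS (log2 fold change 0.26, adjusted p = 0.0284), which edgeR did not (0.25 ± 0.06, adjusted p = 0.177). The PAGE4 effect differed between the lines for 8 genes. TRIB3, CHAC1, SESN2, CEBPB, XBP1 and MANF had a higher value in DU145 cells, against 1.1% of all genes, and SLC7A5 and SLC3A2 had a lower one, against 0.986%. The 6 became 2 without the DU145 PBS pair, 13 without the 22RV1 PBS pair and 12 without the low-count filter, and the 2 became 1 without the 22RV1 PBS pair or the DU145 H2O2 pair. Single pairs, which have no test, showed few of the 42 genes past 1.5-fold. With PBS in 22RV1 cells, DDIT4, SLC7A5 and SLC3A2 were higher in PAGE4 cells (3 genes, against 7.48% of all genes) and CHAC1 was lower (1 gene, against 10.4%). With H2O2 in 22RV1 cells, SLC7A5 was higher (1 gene, against 11%) and ATF5, CHAC1, SESN2 and PPP1R15A were lower (4 genes, against 10.4%). With PBS in DU145 cells, DDIT4, TRIB3 and CEBPB were higher (3 genes, against 8.25%) and 0 lower (against 8.69%), and with H2O2 in DU145 cells 0 were higher (against 7.69%) and 0 lower (against 9.24%). SLC7A5 and SLC3A2, whose products form 1 carrier of large neutral amino acids, stood out in 22RV1 cells. SLC7A5 with PBS and with H2O2 had 45066 and 38308 in 22RV1 cells with the empty vector, 126542.5 and 95571 in 22RV1 cells with PAGE4, 41132 and 71913 in DU145 cells with the empty vector, and 51167 and 68783 in DU145 cells with PAGE4. SLC3A2 had 10876 and 19101.5 in 22RV1 cells with the empty vector, 27303 and 27343 in 22RV1 cells with PAGE4, 13643.5 and 28168.5 in DU145 cells with the empty vector, and 17430.1 and 30585 in DU145 cells with PAGE4. In 22RV1 PAGE4 cells SLC7A5 was 2.81 times the vector level with PBS and 2.49 times with H2O2, and in DU145 PAGE4 cells 1.24 and 0.957 times. The difference between the lines was -1.26 ± 0.10 for SLC7A5 (adjusted p = 1.63e-08 by edgeR) and -0.67 ± 0.16 for SLC3A2 (adjusted p = 0.0194 by edgeR). SLC7A5 was the highest of the 42 genes per length in both 22RV1 PAGE4 libraries, at 3060 and 2610 TPM. Each cell type is a single selected pool, so the construct and other differences between pools cannot be told apart.

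Last, the levels of the lines were compared over the 4 pairs of DU145 and 22RV1 libraries. Here too, other differences between cultures of the lines cannot be told apart from the line. 16 of the 42 genes were higher in DU145 and 16 lower, against 26.3% and 30.1% of all genes. All 6 stress effectors were higher in DU145 cells, from 0.55 for PPP1R15A to 4.38 ± 0.15 for STC2 on the log2 scale (adjusted p = 9.76e-08 by edgeR). STC2 had 254.3 to 867.5 normalized counts in 22RV1 and 4639.4 to 22043.4 in DU145 libraries. Of 9 enzymes 7 were higher in DU145 cells, led by PSAT1 (2.22 ± 0.10, adjusted p = 5.17e-07 by edgeR). Of 11 chaperones 8 were lower, led by CRELD2 (-2.80 ± 0.11, adjusted p = 2.05e-07 by edgeR), which had 3089.4 to 5854.9 normalized counts in 22RV1 and 446.1 to 851.7 in DU145 libraries, and PDIA6 was higher by 0.57. NUPR1 was the lowest in DU145 relative to 22RV1 cells (-3.26 ± 0.14, adjusted p = 2.83e-07 by edgeR). ATF4 and the sensors ERN1 and ATF6 did not pass. HSPA5, HYOU1, SLC7A5 and SLC3A2 did not pass either. All 12 aminoacyl-tRNA synthetases were higher in DU145 cells.

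**Figure D5:**
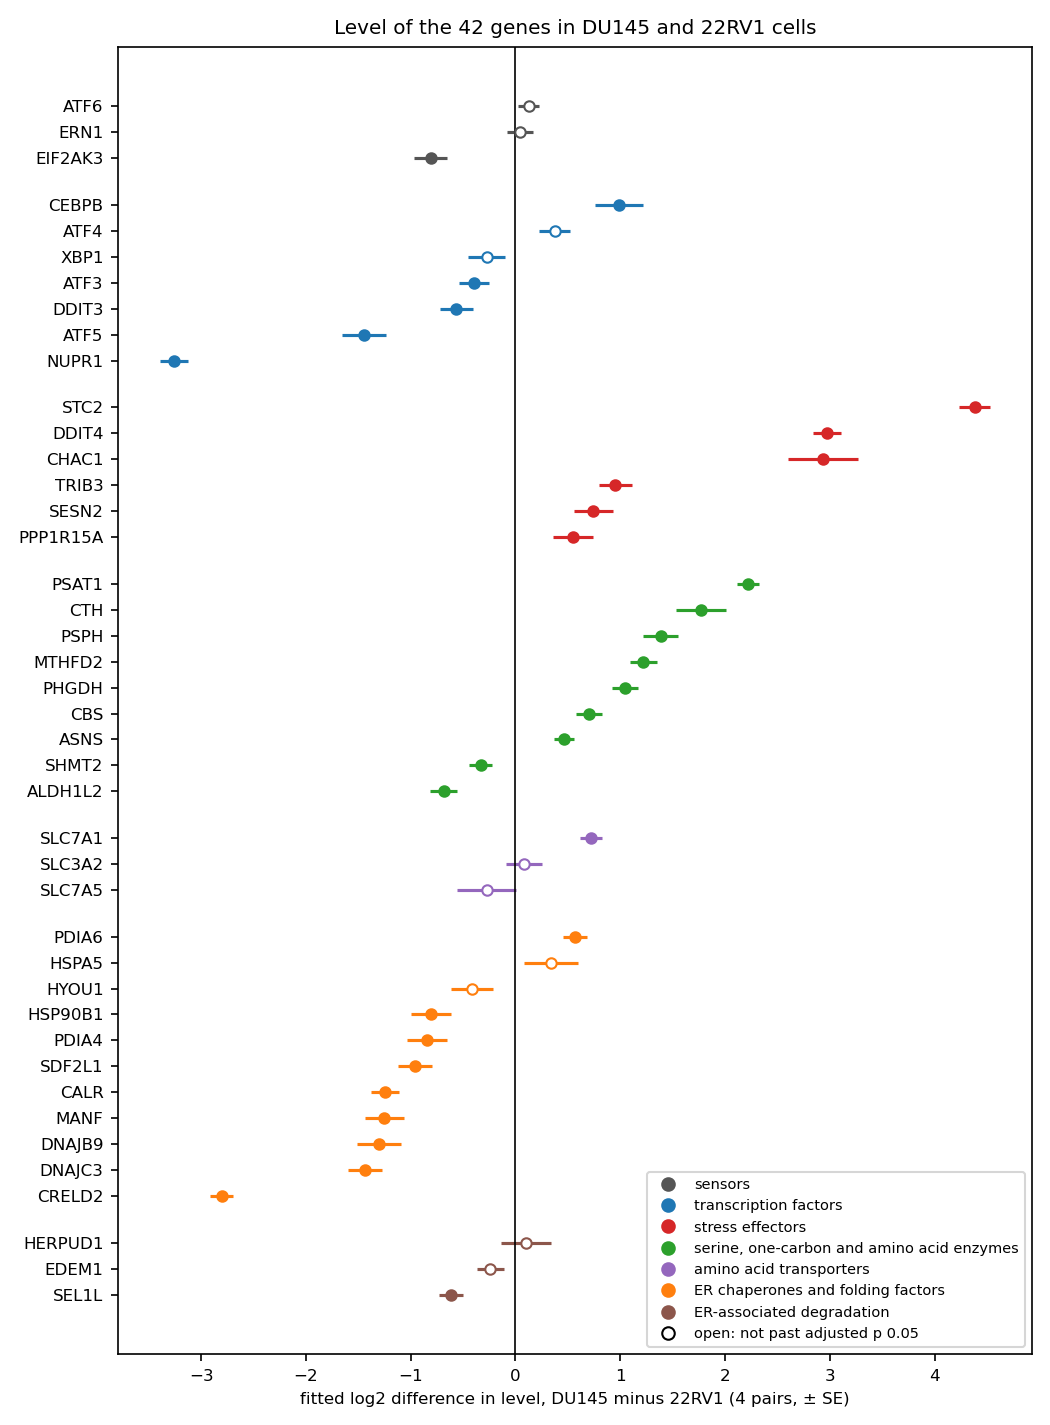
Fitted log2 difference in level of DU145 minus 22RV1 cells (x axis, with SE over 4 pairs) for the 42 genes (y axis), grouped and coloured by role; open symbols did not pass. The 6 stress effectors lie right of 0 and 9 of the 11 chaperones lie left of it.

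8 of the 42 genes (ATF5, DDIT3, SHMT2, MTHFD2, ALDH1L2, HSP90B1, PDIA6 and CRELD2) overlap a protein-coding gene on the other strand somewhere in their span. Whether counting used the strand is not given in the sources used here, so reads in the shared bases cannot be told apart. How many reads lie there, and whether the exons overlap, was not examined. Fewer living cells and less RNA per cell cannot be told apart either in these libraries.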

How the data were processed

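RNA was extracted with Trizol per the labels (a column kit in the study's methods) from 8 cultures of 22RV1 and DU145 cells, 1 library per condition. Per the submitters' notes, HISAT2 2.1.0 aligned the reads to GRCh38, and featureCounts 1.6.0 gave the counts. The deposited values, as the authors left them, are raw read counts per gene in 1 table per line; the annotation release and the strand setting are not given in the sources used here. Levels are counts divided by DESeq2 1.42.0 size factors over the 8 libraries. Fold changes within a pair add 0.5, use genes with a mean of at least 10 in the line's libraries, and are called over 1.5-fold, the fold of the study's methods, with no test.

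For tests across genes, edgeR 4.0.16 (R 4.3.3) was used with its quasi-likelihood F test (TMM, filterByExpr, 24637 genes, Benjamini-Hochberg adjusted p under 0.05), with the pair as block. SE is the size of the log2 fold change divided by the square root of F. The script was tested on simulated data. TPM values used exon lengths of GENCODE release 44 and serve only to compare genes within a library, since that scaling put the median log2 fold change of all genes at 0.15 to 0.26 in the H2O2 pairs. Total counts per library were 25482984 to 43310401, which limits precision little for genes with 131 reads or more, but counting error is not the spread between cultures. The alternatives were DESeq2 size factors, no low-count filter, DESeq2's Wald test, the line as block, each pair left out in turn, and other scalings, minimums, pseudocounts and folds for single pairs. The genes and lists were chosen with earlier results of these data known. In each comparison genes past the threshold were named by the size of their change, and the 68 other genes by the 3 largest in each direction. Protein sequences were not used here. Some markers of the list for 22RV1 cells are not reported here.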

Additional observations from a re-analysis of the deposited data

Results flagged for a closer look

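These genes had an effect that differed between groups by edgeR's test of the difference itself (adjusted p under 0.05). Values are log2 differences, and no explanation was tested.

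The H2O2 effect in DU145 minus that in 22RV1 cells was positive for HSPA5 1.33, HERPUD1 1.21, CTH 1.08, HYOU1 1.03, HSP90B1 0.93, ATF5 0.92, SLC7A5 0.90, PDIA4 0.89, PSPH 0.74, DNAJB9 0.72, MANF 0.70, DDIT3 0.59, DNAJC3 0.58, STC2 0.54, CALR 0.52, TRIB3 0.50, SLC3A2 0.48, MTHFD2 0.48, PDIA6 0.42, XBP1 0.39, SHMT2 0.39 and PHGDH 0.39. It was negative for CHAC1 -1.44, CEBPB -0.65, ATF4 -0.58 and EDEM1 -0.43.

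The H2O2 effect in PAGE4 minus that in vector cells was negative for DDIT4 -0.75, PPP1R15A -0.68, SESN2 -0.53 and SLC3A2 -0.53. None of these 4 was called by DESeq2's Wald test.

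The PAGE4 effect in DU145 minus that in 22RV1 cells was positive for CHAC1 1.02, CEBPB 0.87, SESN2 0.79, XBP1 0.77, MANF 0.57 and TRIB3 0.56. It was negative for SLC7A5 -1.26 and SLC3A2 -0.67. This comparison uses the same 8 libraries as the others.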

How the results depend on the processing

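No called value of the 42 genes changed direction under the alternatives run. Of 1211 single-gene values recomputed for genes called in the main fits, 1103 stayed called and 108 did not. Genes not called in the main fits are outside this count, and some of them became called under an alternative, as given below. With DESeq2's Wald test the H2O2 effect differing between the lines had 2 genes lower instead of 4, that between constructs 0 instead of 4 (2 instead of 41 in the whole table), the PAGE4 effect common to the pairs 1 higher instead of 0, and the PAGE4 effect between the lines 1 lower instead of 2 (331 instead of 514 in the whole table). Without the low-count filter, the common PAGE4 effect had 4 genes higher and 1 lower instead of 0, with SLC7A5, SLC3A2 and ASNS among the higher and ATF5 lower (483 instead of 54 in the whole table), and the PAGE4 effect between the lines 12 higher instead of 6 (806 instead of 514). With the line as block the common PAGE4 effect was called for 1 gene in the whole table. Scaling by total counts gave 2 genes lower instead of 1 in the PAGE4 pair of 22RV1 cells with PBS, and moved the median of all genes in the H2O2 pairs of 22RV1 cells from -0.06 to 0.09 and from -0.02 to 0.11 (log2).

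A limit of 2-fold instead of 1.5-fold gave 4 genes lower instead of 9 in 22RV1 vector cells, 5 instead of 9 in 22RV1 PAGE4 cells, 13 higher instead of 24 and 0 lower instead of 2 in DU145 vector cells, and 12 higher instead of 19 and 1 lower instead of 3 in DU145 PAGE4 cells with H2O2. Between constructs it gave 0 lower instead of 1 in 22RV1 cells with PBS, 1 instead of 4 with H2O2, and 0 higher instead of 3 in DU145 cells with PBS.

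Leaving out 1 pair at a time, the common H2O2 effect called 17 to 22 genes higher and 4 to 7 lower (4 without the 22RV1 vector pair, 5 without the 22RV1 PAGE4 pair), 2103 to 4005 instead of 4444 in the whole table (2103 without the DU145 vector pair, 2409 without the 22RV1 vector pair and 2465 without the DU145 PAGE4 pair). The effect in 22RV1 cells called 18 to 22 higher and 11 to 12 lower, and that in DU145 cells 27 to 29 higher and 5 to 10 lower (5 without the DU145 vector pair). Their difference called 14 to 26 higher (14 without the DU145 vector pair) and 3 to 4 lower. The common PAGE4 effect called 0 to 2 higher and 0 lower, its difference between the lines 2 to 13 higher and 1 to 2 lower, and the line levels 15 to 17 higher and 13 to 17 lower. In these cases the cause was not tested, except that fewer libraries were fitted. Pairs of conditions were the block of each edgeR fit except the one with the line as block. By replicate number, no paired analysis was possible because the labels give no replicate numbers. The construct interaction could not be fitted with a pair left out.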

Other observations

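GDF15, among the other ATF4 targets, differed between the lines more than any gene of the 42 did with H2O2. It had 1033.1 and 44184.4 normalized counts with PBS and H2O2 in 22RV1 vector cells, 1460.7 and 41025.9 in PAGE4 cells of that line, 87.4 and 514.9 in DU145 vector cells, and 115.5 and 439.3 in DU145 PAGE4 cells. Its H2O2 effect was 5.12 ± 0.12 in 22RV1 and 2.20 ± 0.16 in DU145 cells on the log2 scale, a difference of -2.92 ± 0.21 (adjusted p = 4e-10 by edgeR), and it was smaller in PAGE4 cells by 0.62 (adjusted p = 0.00341 by edgeR). That last value is from the construct interaction, a fit with 1 residual degree of freedom. For that interaction DESeq2's Wald test called 2 genes in the whole table, against 41 by edgeR. GDF15 was chosen by the rule for the largest change in its list.

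Per length, CALR was the highest of the 42 genes in 22RV1 vector cells with PBS, at 1660 TPM, ATF4 in the same cells with H2O2, at 1140, and SLC7A5 in the other 6 libraries.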
